A study of Arabidopsis with 12 samples.

Results

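The genotype by sugar interaction asks, gene by gene, whether leaves without phytochrome A answered sucrose differently from wild-type leaves. For each gene it is the sucrose minus sorbitol difference in phyA-211 minus the same difference in Col-0, on the log2(TPM + 1) scale, where TPM is a transcript's share of its library, scaled for gene length. It was computed for 19862 of the 32833 genes in the table, those with at least 1 TPM in at least 3 of the 12 libraries. A positive value means that the transcript stood relatively higher under sucrose in the mutant, and a negative value that it stood relatively lower.

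The samples were leaf portions of Arabidopsis seedlings, 10 days old and raised in white light, that spent 6 h in shade (R/FR 0.17, the proportion of red to far-red light) before collection. They fell into 4 groups of 3 libraries: phyA-211 with 30 mM sucrose, phyA-211 with 30 mM sorbitol, Col-0 with 30 mM sucrose, and Col-0 with 30 mM sorbitol. Every group was shaded, so no comparison measures shade itself. phyA-211 is a single mutant line of the photoreceptor gene PHYA, compared with the wild-type accession Col-0, and sorbitol is a sugar alcohol given in place of sucrose. The labels do not say whether libraries came from separate cultures, so the p-values reflect only how far these libraries spread, which may be technical.

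Phytochrome A is the photoreceptor by which plants perceive light rich in far-red, as under a canopy. In shade it restrains the elongation that follows when phytochrome B is inactivated, acting in part through the bZIP factors HY5 and HYH. Sucrose is a fuel and also a signal that activates the TOR kinase and quiets the energy-stress kinase SnRK1, and it raises ribosome and cell-division genes while lowering starvation genes. The series title ties these routes together in leaf development.

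PHYA transcript stood at 44.9, 44.7 and 37.4 TPM in phyA-211 on sucrose and 32.5, 41.3 and 34.9 TPM in phyA-211 on sorbitol, against 343, 269.9 and 223 TPM in Col-0 on sucrose and 356, 346 and 385 TPM in Col-0 on sorbitol. Every mutant library lay below every Col-0 library under each sugar, as the labels give it. PHYA itself had an interaction of 0.62 (SE 0.219, limma adjusted p = 0.999).

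Nuclear photosystem and Rubisco genes, which mark leaf tissue, were abundant in all 12 libraries. Libraries within a group could differ widely. On starvation genes it was replicate 3 of phyA-211 on sucrose that lay away from its group. The median log2(TPM + 1) of 26 starvation genes, taken relative to the library's own median gene, was 2.26, 2.24 and -0.07 in the 3 phyA-211 sucrose libraries, against 3.84, 3.62 and 3.94 in phyA-211 on sorbitol. In Col-0 it was 1.21, 1.07 and 1.23 with sucrose and 2.85, 3.24 and 3.63 with sorbitol. The third mutant sucrose library thus lay below every other library on this measure, and interactions that move by over 1.5 times are given below without it. Replicate 2 of phyA-211 on sorbitol lay away on other lists: the histone level, on the same measure, was 2.104, 1.26 and 1.89 in the 3 phyA-211 sorbitol libraries, and the root marker level -1.04, 0.87 and 0.02. Depth is unknown, because TPM keeps no read counts.

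Few genes had a sucrose response that differed between genotypes by more than the spread of 3 libraries a group. The median interaction over all 19862 genes was 0.04, the quartiles were -0.14 and 0.19, and the 5th and 95th percentiles were -0.62 and 0.45. The median SE of a gene's interaction was 0.258. At an adjusted p under 0.05 (limma, 2-sided, Benjamini-Hochberg over all genes tested) 2 genes were higher, 0.0101% of those tested, and 0 were lower, 0%. The smallest adjusted p on the lower side was 0.135. At an unadjusted p under 0.05 there were 792 genes, 3.99%, of which 421 (2.12%) were higher and 371 (1.87%) lower. Weighting libraries by estimated quality, with weights between 0.192 and 4.89, gave 980 higher and 396 lower genes, while each of the other settings tried gave 1 or 2 higher and 0 lower. Under those weights 5762 genes had an unadjusted p under 0.05, so the weighted counts stand apart from all others.

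**Figure D1:**
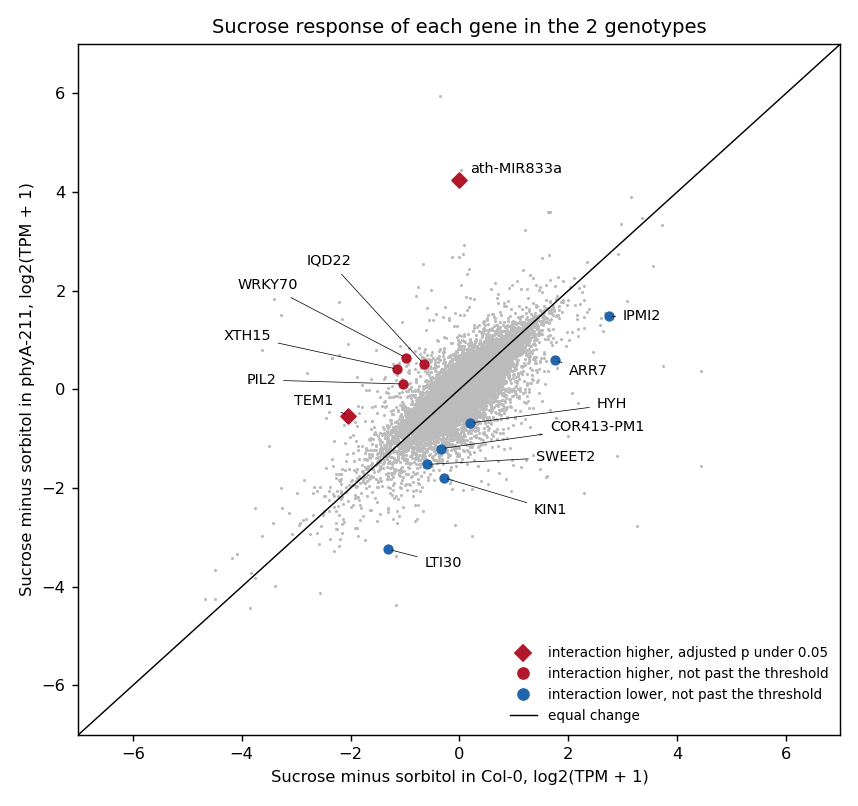
Sucrose minus sorbitol difference of each of the 19862 genes, in Col-0 on the horizontal axis and in phyA-211 on the vertical axis, both on the log2(TPM + 1) scale. Genes lie along the line of equal change, with TEM1 and ath-MIR833a (diamonds) past the threshold and the genes drawn as coloured circles off the line but not past it.

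TEM1 (AT1G25560), a RAV-family transcription factor that represses flowering, kept most of its transcript under sucrose in the mutant and lost most of it in wild type. Its level was 159, 144 and 129.7 TPM in phyA-211 on sucrose and 216, 199.6 and 208 TPM in phyA-211 on sorbitol. In Col-0 it was 35.9, 37.8 and 50.4 TPM with sucrose and 159, 172 and 183 TPM with sorbitol. The libraries of the 2 sugars did not overlap in either genotype, nor those of the 2 genotypes under either sugar. The sucrose mean was 0.694 of the sorbitol mean in phyA-211 and 0.242 in Col-0. The sucrose change was -0.53 in phyA-211 (adjusted p = 0.0154) and -2.04 in Col-0 (adjusted p = 9.52e-05). The interaction was 1.51 (SE 0.19, adjusted p = 0.0473), a weaker response without phytochrome A. It ranged between 1.42 and 1.66 over 20 other settings but passed the threshold in 5 of them, with an adjusted p of up to 0.281 (median-ratio rescaling). TEM1 stayed past it without replicate 3 of phyA-211 on sucrose (0.0434) or replicate 3 of Col-0 on sucrose (0.00702), and missed it when any of the other 10 libraries was left out (adjusted p of 0.115 to 0.244) or with the replicate block (0.236).

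The microRNA gene ath-MIR833a (AT1G78478) was listed at 15.2, 15.9 and 23.6 TPM in phyA-211 on sucrose and at 0 in the other 9 libraries. It passed in the limma test (adjusted p = 5.33e-05) and under all 20 other settings. It met the filter of 1 TPM in 3 libraries only through the phyA-211 sucrose group, and it had no spread in the other groups. Passing under every setting is therefore no added support. No fold is given, since an exact 0 in a table without counts may be a failed estimate. The RefSeq annotation places this gene inside the protein-coding gene AT1G78476, which stood at no more than 1.25 TPM in any library, and overlapping ath-MIR833b, which was listed at 0 in all 12. How reads of overlapping genes were assigned is not given in the sources used here, so the value is uncertain.

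Non-coding genes were frequent among the extreme interactions. Of 929 tested genes that RefSeq does not class as protein-coding, 192 (20.7%) had an interaction of at least 1 in either direction, against 320 of 18933 protein-coding genes (1.69%). AT2G08420, a non-coding RNA that RefSeq places within the chloroplast protease gene VAR2, was listed at 57.3, 70.5 and 54.7 TPM in phyA-211 on sucrose and at 0 in all 3 phyA-211 sorbitol libraries. It was at 0, 2.43 and 0 TPM in Col-0 on sucrose and 0, 0 and 6.19 TPM in Col-0 on sorbitol (adjusted p = 0.135). A second non-coding RNA, AT2G07213, stood at 4.85, 6.93 and 12.8 TPM in phyA-211 on sucrose and at no more than 0.86 TPM in any other library (adjusted p = 0.279). On the lower side, AT5G05635, which carries no description, was at 1.56, 2.57 and 0 TPM in phyA-211 on sucrose and 4.01, 12.6 and 9.66 TPM in phyA-211 on sorbitol. Col-0 libraries had 5.67, 2.53 and 3.94 TPM with sucrose and were listed at 0 with sorbitol (adjusted p = 0.135). AT2G08420 passed without replicate 3 of Col-0 on sorbitol (adjusted p = 0.0252). With all libraries these 3 genes missed the threshold, and their order between groups rests on libraries listed at or near 0. AT2G08420 and AT2G07213 also met the filter only with the phyA-211 sucrose libraries, where they were high.

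Besides TEM1, the named protein-coding genes AT5G44260, AT2G39980, WRKY70, IQD22 and PIL2 also fell with sucrose in Col-0, and none of them passed the threshold for the interaction. AT5G44260, the zinc finger gene TZF5 of the RefSeq table, was at 129, 124 and 94.6 TPM in phyA-211 on sucrose and 136, 152 and 153 TPM in phyA-211 on sorbitol, against 38.1, 29.4 and 37.2 TPM in Col-0 on sucrose and 95.1, 109 and 121 TPM in Col-0 on sorbitol. Its interaction was 1.26 (SE 0.21, adjusted p = 0.27). The acyltransferase gene AT2G39980 had sucrose changes of -0.74 in phyA-211 and -1.88 in Col-0 (interaction 1.14, adjusted p = 0.279). In the mutant, AT5G44260 had a sucrose change of -0.35 (adjusted p = 0.1), and AT2G39980 fell (adjusted p = 0.00507).

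WRKY70, a transcription factor that links salicylate and jasmonate defence, changed in opposite directions. It was at 15.6, 12.4 and 9.86 TPM in phyA-211 on sucrose and 6.4, 7.41 and 9.2 TPM in phyA-211 on sorbitol, and at 2.94, 3.79 and 4.37 TPM in Col-0 on sucrose and 9.17, 9.15 and 6.48 TPM in Col-0 on sorbitol. It rose with sucrose in the mutant (0.64, adjusted p = 0.0354) and fell in Col-0 (-0.98, adjusted p = 0.00614), and the groups did not overlap in either genotype. The interaction of 1.62 (SE 0.284) had an adjusted p of 0.279. IQD22, a calmodulin-binding protein gene, did likewise, at 0.51 in phyA-211 (adjusted p = 0.0258) and -0.65 in Col-0 (adjusted p = 0.00979), with an interaction of 1.16 (adjusted p = 0.289). Of the 10 genes of smallest p in each direction, 1 higher and 1 lower gene without a symbol are left out.

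On the lower side, HYH, the bZIP partner of HY5 in light signalling, had less transcript with sucrose in the mutant. It was at 33.2, 27.9 and 39.8 TPM in phyA-211 on sucrose and 60.03, 47.98 and 54.2 TPM in phyA-211 on sorbitol, against 70.2, 79.6 and 87.9 TPM in Col-0 on sucrose and 65.4, 65.9 and 74.01 TPM in Col-0 on sorbitol. Mutant libraries lay below Col-0 libraries under both sugars. It fell in phyA-211 (-0.68, adjusted p = 0.00735), while its Col-0 change was 0.20 (adjusted p = 0.331), and the interaction was -0.88 (SE 0.201, adjusted p = 0.636). HOL1, a methyltransferase that forms methyl halides and thiocyanate, was at 229.9, 235 and 205 TPM in phyA-211 on sucrose and 347, 348 and 354 TPM in phyA-211 on sorbitol. The Col-0 values were 518, 498 and 501 TPM with sucrose and 471, 498 and 553 TPM with sorbitol, where the groups overlapped (interaction -0.64, SE 0.15, adjusted p = 0.636). AT3G27630, listed in RefSeq as SMR7 and encoding an inhibitor of cyclin-dependent kinases, was at 2.48, 2.94 and 4.68 TPM in phyA-211 on sucrose and 7.93, 7.28 and 7.34 TPM in phyA-211 on sorbitol. In Col-0 it did not exceed 1.69 TPM (interaction -1.35, adjusted p = 0.688).

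**Figure D2:**
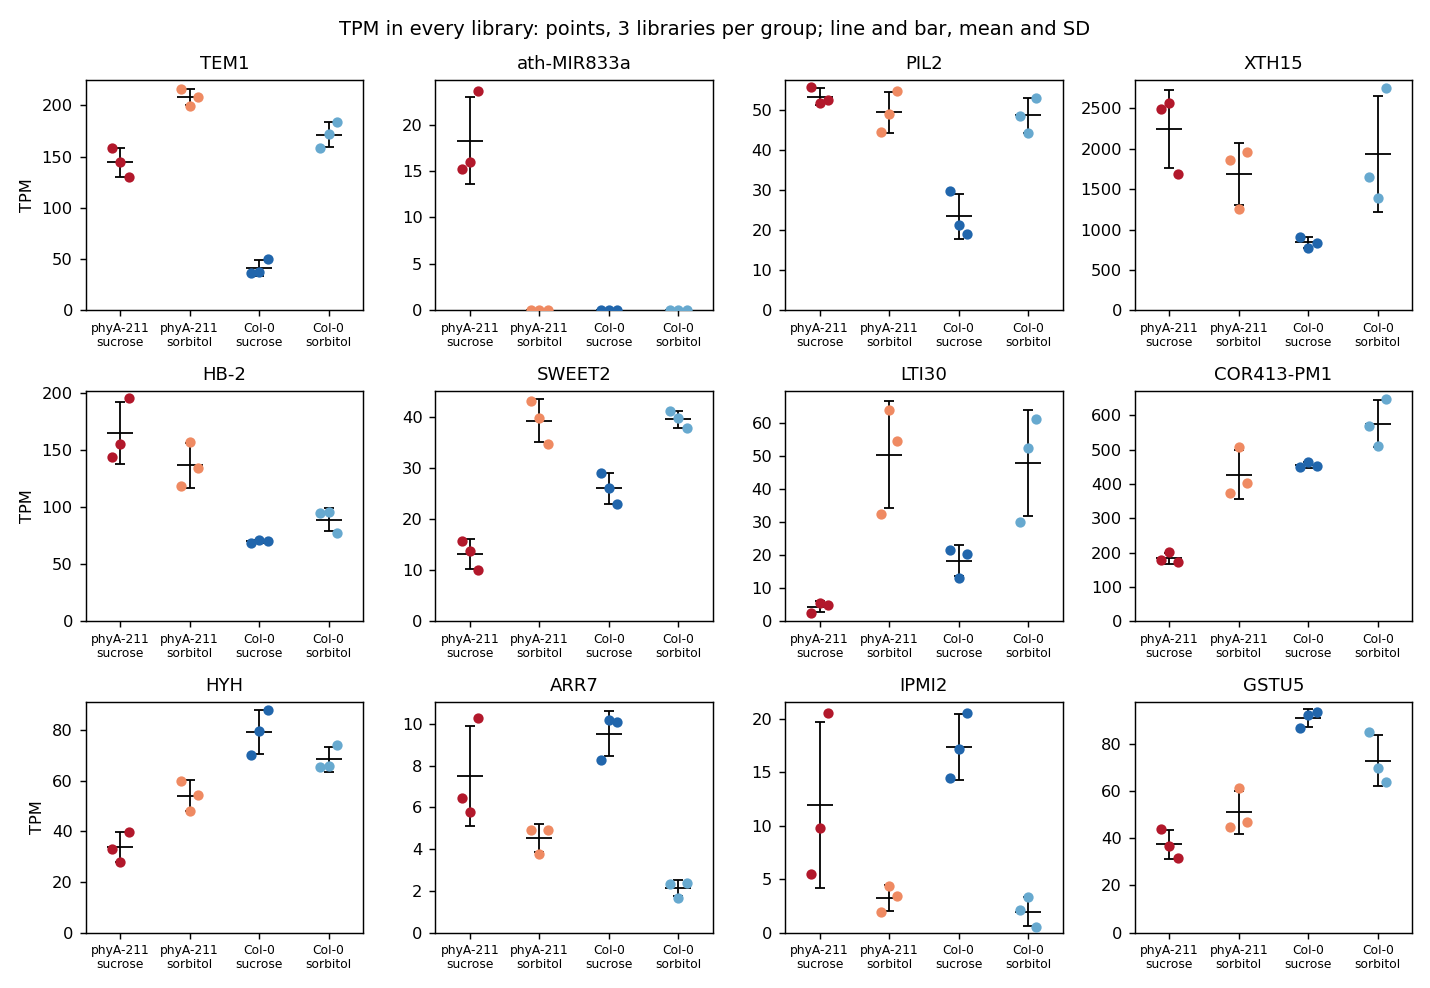
TPM of 12 genes named in the text in each of the 12 libraries, with phyA-211 sucrose, phyA-211 sorbitol, Col-0 sucrose and Col-0 sorbitol from left to right; points are libraries, lines and bars the mean and SD of 3. TEM1 and PIL2 are low only in the Col-0 sucrose libraries, while SWEET2, COR413-PM1 and HYH are lowest in the phyA-211 sucrose libraries.

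Families were then compared through 81 gene lists and families, which together hold 2760 of the tested genes. A list was said to lean when its median interaction lay at least 0.15 from the median of all genes and at least 2 in 3 of its tested members lay on that side. By this description 4 lists leaned higher, 21 leaned lower and 56 did neither. No member of any list passed the adjusted threshold, and 144 (5.22%) had an unadjusted p under 0.05, next to 3.99% of all genes. With no interaction in any gene, a share of about 0.05 would be expected there, so the 144 are not read as an excess. The rule was met under all 20 other settings by 5 of the 25 leaning lists, those of auxin synthesis, glucosinolates, SWEET genes, peroxidases and cytochromes P450, and was missed under at least 1 setting by the other 20. All list medians below are differences from the median of all genes, and ranges are those obtained by leaving out each library in turn.

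**Figure D3:**
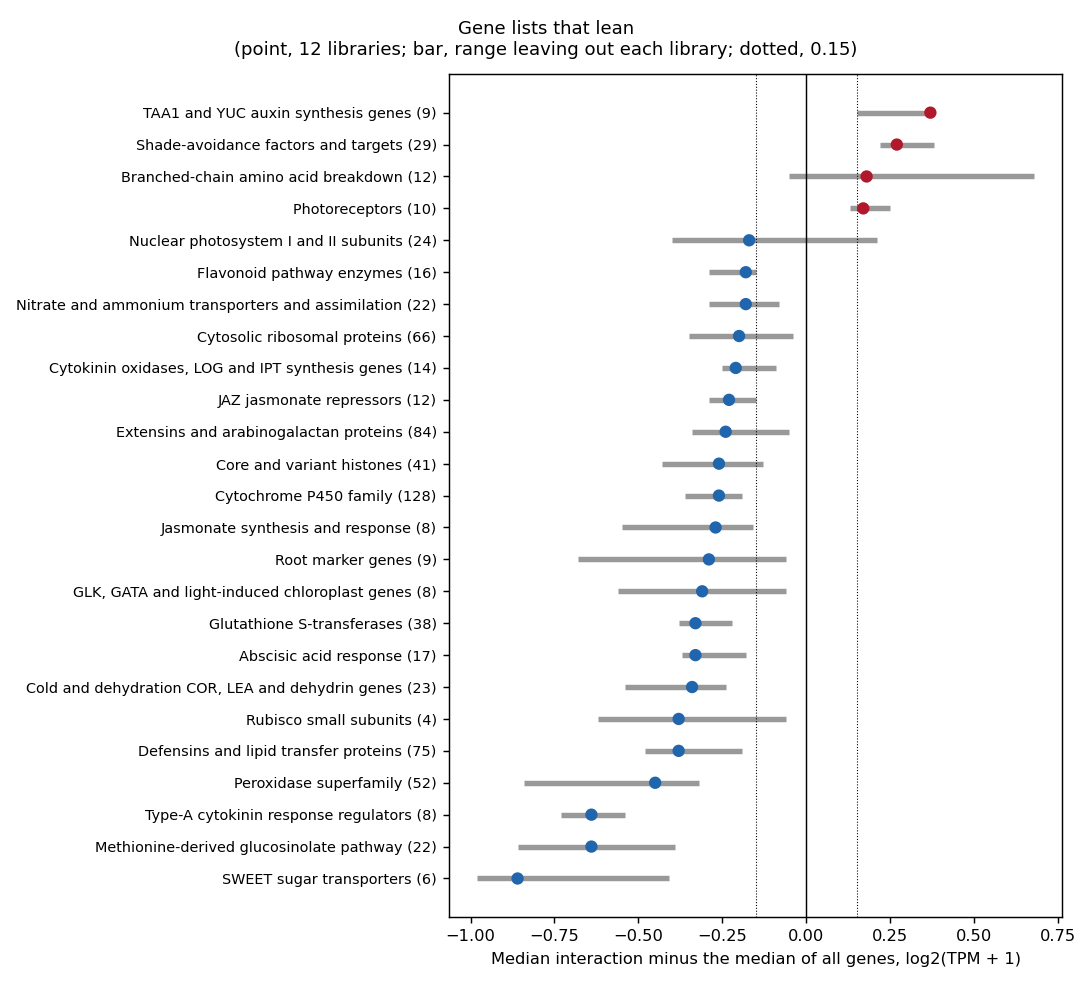
Median interaction of each of the 25 lists that lean, minus the median of all genes, on the log2(TPM + 1) scale, with the number of tested genes in brackets; points use 12 libraries and grey bars span the values with each library left out. SWEET genes lie lowest at -0.86 and TAA1 and YUC genes highest at 0.37, and the bars of branched-chain amino acid breakdown and photosystem subunits cross 0.

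Shade-avoidance genes stood relatively higher under sucrose in the mutant. Of 29 factors and targets, all tested, 24 lay above the median of all genes, with a list median of 0.27 (range 0.22 to 0.38). Without replicate 1 of Col-0 on sucrose the median was 0.22 but fewer than 2 in 3 members lay above. Their median sucrose change was 0.05 in phyA-211 and -0.30 in Col-0. Members with an unadjusted p under 0.05 numbered 7, all higher, or 24.1%, next to 2.12% of all genes. For 21 of the 29 the interaction ran against the mean sucrose change of both genotypes, counted here as a weaker response without phytochrome A. For 8 (27.6%) it had the same sign, counted as a stronger one, next to 55.8% of all genes. The sucrose change was above 0 in both genotypes for 7 members and below 0 in both for 13. The rest had changes of opposite sign, so for them the count does not describe a weaker or stronger form of the same response. Earlier results of these data had already shown this list lower with sucrose in Col-0, so its direction is not independent evidence.

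PIL2, a bHLH factor of the phytochrome-interacting family, was at 55.6, 51.8 and 52.5 TPM in phyA-211 on sucrose and 44.5, 48.9 and 54.7 TPM in phyA-211 on sorbitol, against 29.9, 21.3 and 19.1 TPM in Col-0 on sucrose and 48.4, 44.2 and 53.02 TPM in Col-0 on sorbitol. The Col-0 sucrose libraries lay below the other 9. It fell in Col-0 (-1.04, adjusted p = 0.00153) and had a change of 0.11 in phyA-211 (adjusted p = 0.607), with an interaction of 1.15 (SE 0.214, adjusted p = 0.321). XTH15, a cell wall xyloglucan enzyme gene induced by shade, was at 2493, 2561 and 1692 TPM in phyA-211 on sucrose and 1860.2, 1249 and 1962 TPM in phyA-211 on sorbitol. In Col-0 it was at 912, 775 and 835 TPM with sucrose and 1654, 1392 and 2754 TPM with sorbitol. Again the Col-0 sucrose libraries were the lowest 3 of 12 (interaction 1.56, SE 0.382, adjusted p = 0.695).

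PKS4, a phytochrome kinase substrate, fell in both genotypes, by 0.42 in phyA-211 (adjusted p = 0.0237) and by 1.02 in Col-0 (adjusted p = 0.000782). It was at 34.3, 35.4 and 27.04 TPM in phyA-211 on sucrose, 40.6, 44.3 and 44.7 TPM in phyA-211 on sorbitol, 10.7, 10.8 and 12.3 TPM in Col-0 on sucrose and 25.1, 23.7 and 22.7 TPM in Col-0 on sorbitol. All mutant libraries exceeded all Col-0 libraries (interaction 0.60, SE 0.168, adjusted p = 0.949). HB-2, the homeodomain factor ATHB2 that marks the shade response, was at 144, 155 and 195 TPM in phyA-211 on sucrose and 118, 157 and 134 TPM in phyA-211 on sorbitol. Col-0 libraries had 68.5, 71.2 and 70.2 TPM with sucrose and 94.7, 95.3 and 77.1 TPM with sorbitol (interaction 0.60, adjusted p = 0.999). Other members, chosen after their values were seen, were PIF3 at 0.51 and PAR1, a repressor of shade responses, at 0.74.

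The 9 tested of 11 TAA1 and YUC genes, which carry out the steps from tryptophan to auxin, leaned the same way, and this list shares 5 genes with the shade list. Their median was 0.37 (range 0.15 to 0.36), with 6 above and 3 below the median of all genes, and median sucrose changes of 0.39 in phyA-211 and 0.00 in Col-0. The lowest of these values came without replicate 1 of phyA-211 on sorbitol. YUC8, a flavin monooxygenase gene, was at 46.6, 51.4 and 50.8 TPM in phyA-211 on sucrose and 39.1, 53.9 and 41.7 TPM in phyA-211 on sorbitol, against 31.3, 31.3 and 27.8 TPM in Col-0 on sucrose and 38.05, 37.8 and 35.4 TPM in Col-0 on sorbitol (interaction 0.44, SE 0.173, adjusted p = 0.999). Mutant libraries lay above Col-0 libraries under both sugars. Interactions of YUC9, TAR2 and YUC5 were 0.46, 0.41 and 0.42, with unadjusted p of 0.128, 0.129 and 0.208, and that of YUC5 was 0.15 without replicate 3 of phyA-211 on sucrose.

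Photoreceptor genes leaned slightly higher, at 0.17 (range 0.13 to 0.25), with 9 of 10 above the median of all genes. PHYA itself is 1 of the 10 and the single member with an unadjusted p under 0.05. PHOT1, a blue-light phototropin, was at 339.9, 368 and 343 TPM in phyA-211 on sucrose, 189.6, 311 and 200.4 TPM in phyA-211 on sorbitol, 266, 263 and 219 TPM in Col-0 on sucrose and 270.3, 247 and 177 TPM in Col-0 on sorbitol. Its interaction was 0.49 (unadjusted p = 0.106), that of UVR8, the ultraviolet-B receptor, 0.23, and that of PHYB 0.31 (0.20 without replicate 3 of phyA-211 on sucrose). The lean was not met when any 1 of 5 libraries was left out, the lowest median being without replicate 1 of phyA-211 on sucrose.

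Enzymes of branched-chain amino acid breakdown, which feed respiration when carbon is short, leaned higher at 0.18, 10 of 12 above the median of all genes. They had large sucrose changes in both genotypes, with medians of -1.62 in phyA-211 and -1.73 in Col-0. The lean was lost and the sign turned without replicate 1 (-0.004) or replicate 2 (-0.05) of phyA-211 on sucrose or replicate 3 of Col-0 on sorbitol (-0.01). It was also not met without replicate 2 of phyA-211 on sorbitol (0.06) or with quantile normalization (0.14), and the median was 0.68 without replicate 3 of phyA-211 on sucrose. ETFBETA, an electron-transfer flavoprotein subunit, had an interaction of 0.46 (unadjusted p = 0.128), and CHY1, ETFALPHA and D2HGDH had 0.22, 0.17 and 0.15. Without that last library ETFALPHA and D2HGDH each had 0.26.

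**Figure D4:**
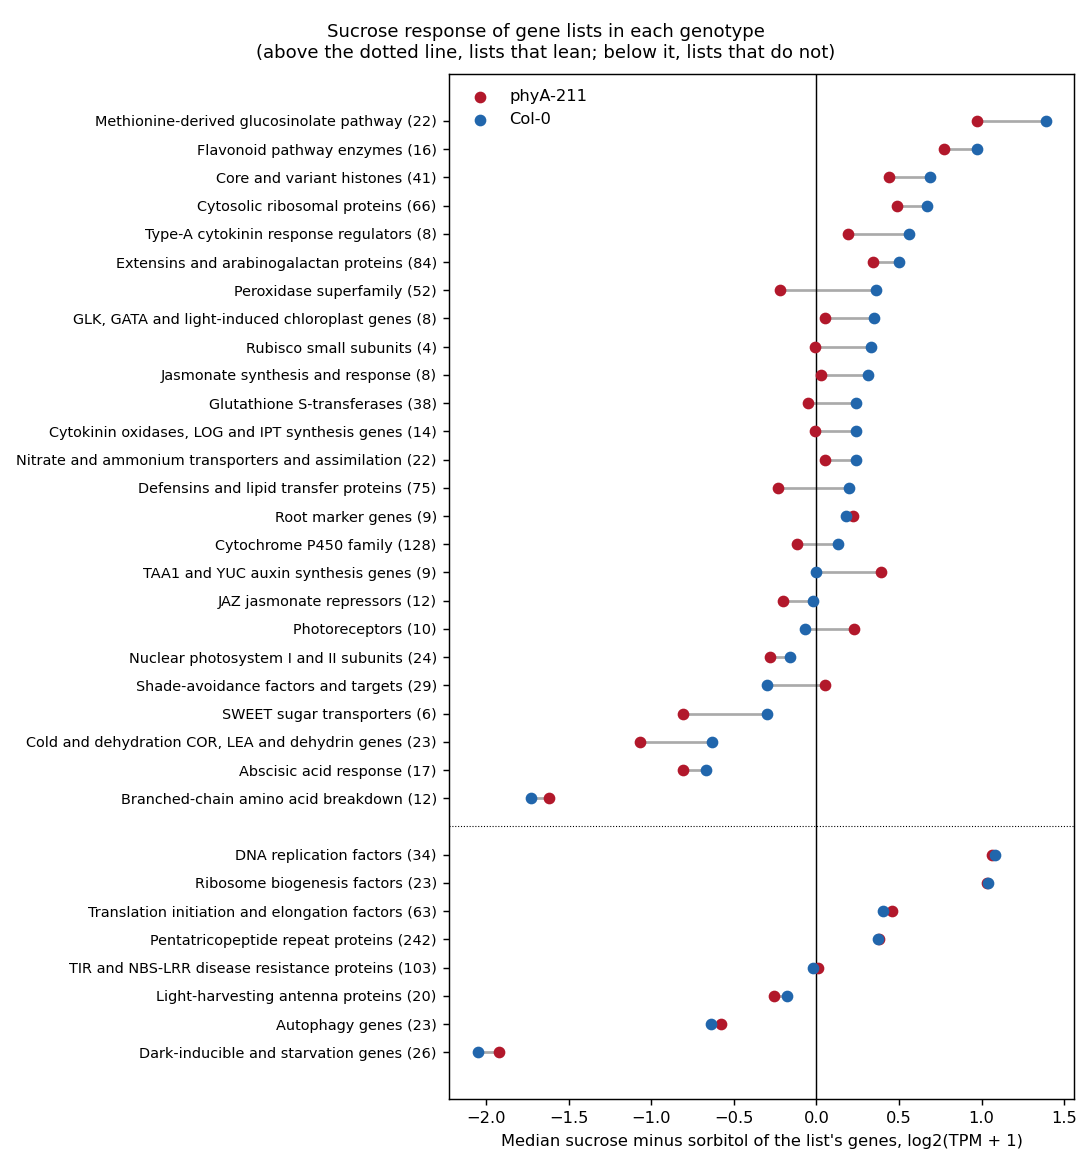
Median sucrose minus sorbitol difference of each list's genes in phyA-211 (red) and in Col-0 (blue), on the log2(TPM + 1) scale, for the 25 lists that lean (above the dotted line) and 8 that do not. Glucosinolate genes have medians of 0.97 in phyA-211 and 1.39 in Col-0, and starvation genes -1.92 in phyA-211 and -2.05 in Col-0.

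The methionine-derived glucosinolate pathway, which builds sulfur-rich defence compounds by lengthening methionine and converting the product, had smaller sucrose gains in the mutant at the median. All 22 tested members of 24 had a sucrose change above 0 in both genotypes, with medians of 0.97 in phyA-211 and 1.39 in Col-0. The interaction was lower than the median of all genes for 21 of 22, with a list median of -0.64 (range -0.86 to -0.39). No member had an unadjusted p under 0.05 in limma, next to 1.87% of all genes on the lower side, and members ranged between -1.29 and 0.25.

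IPMI2, an isopropylmalate isomerase subunit of the chain-lengthening cycle, was at 5.48, 9.74 and 20.5 TPM in phyA-211 on sucrose and 1.94, 4.34 and 3.42 TPM in phyA-211 on sorbitol, against 14.4, 17.1 and 20.5 TPM in Col-0 on sucrose and 2.1, 3.3 and 0.51 TPM in Col-0 on sorbitol. The mutant sucrose libraries spread widely, from below all Col-0 sucrose libraries to level with the highest. Its interaction was -1.26 (SE 0.624, unadjusted p = 0.0666). IMS2, which the same cycle uses to condense its substrates, was at 11.98, 27.5 and 19.6 TPM in phyA-211 on sucrose and 3.17, 10.6 and 9.46 TPM in phyA-211 on sorbitol. The Col-0 values were 24.8, 18.4 and 28 TPM with sucrose and 3.08, 6.38 and 1.2 TPM with sorbitol (interaction -1.29, SE 0.661). Values for BAT5, a plastid carrier of the pathway, and SOT18, a sulfotransferase of its last core step, were -0.89 and -0.72. The list's median log2(TPM + 1), relative to the library's median gene, was -0.58, -0.25 and 0.25 in phyA-211 on sucrose, against 0.17, 0.34 and 0.61 in Col-0 on sucrose. The sorbitol libraries were at -1.85, -0.73 and -1.37 in phyA-211 and at -1.60, -0.99 and -2.58 in Col-0. Sorbitol libraries of 1 genotype thus differed by more than the list's median interaction.

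Type-A response regulators, early targets and inhibitors of cytokinin signalling, had a median of -0.64 (range -0.73 to -0.54), with 7 of 8 tested members of 10 below the median of all genes. Their median sucrose changes were 0.19 in phyA-211 and 0.56 in Col-0. Members with an unadjusted p under 0.05 numbered 4, all lower, next to 1.87% of all genes. ARR7 was at 6.46, 5.8 and 10.3 TPM in phyA-211 on sucrose and 4.9, 3.78 and 4.92 TPM in phyA-211 on sorbitol, against 8.29, 10.2 and 10.1 TPM in Col-0 on sucrose and 2.35, 1.67 and 2.36 TPM in Col-0 on sorbitol. It rose in both genotypes, by 0.59 in phyA-211 (adjusted p = 0.0455) and by 1.75 in Col-0 (adjusted p = 0.000782), and the interaction was -1.16 (SE 0.281, adjusted p = 0.69). The mutant mean was 1.66 times its sorbitol mean and the Col-0 mean 4.48 times.

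ARR4 was at 24.2, 25.1 and 33.99 TPM in phyA-211 on sucrose and 15.01, 23.1 and 18.4 TPM in phyA-211 on sorbitol. In Col-0 it was at 34.6, 43.5 and 43.5 TPM with sucrose and 15.9, 14.1 and 14.4 TPM with sorbitol (interaction -0.85, SE 0.243, adjusted p = 0.949). Sucrose and sorbitol libraries did not overlap in either genotype. ARR6 and RR5 had interactions of -1.17 and -0.91 (unadjusted p = 0.0109 and 0.0202), at no more than 8.51 TPM in any library. The remaining 4 members lay between -0.34 (ARR9) and 0.26 (RR16). The list fell short of the lean rule without replicate 1 of Col-0 on sorbitol. Earlier results of these data had shown these genes higher with sucrose in Col-0, so the direction of this list is not independent evidence.

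Histone and ribosomal protein genes leaned lower by smaller amounts. Core and variant histones had a median of -0.26 (range -0.43 to -0.13), with 37 of 41 tested members below the median of all genes and sucrose medians of 0.44 in phyA-211 and 0.69 in Col-0. HTR11, a histone H3 gene at low level, was at 0.75, 1.32 and 2.13 TPM in phyA-211 on sucrose, 1.97, 1.34 and 1.55 TPM in phyA-211 on sorbitol, 3.29, 3.37 and 2.54 TPM in Col-0 on sucrose and 1.21, 0.84 and 0.81 TPM in Col-0 on sorbitol. Without replicate 2 of phyA-211 on sorbitol the histone median was -0.43. The interaction of HTR11 was -1.22 (SE 0.314, adjusted p = 0.778). An abundant histone H3.1 gene, AT5G65360, was at 219, 206 and 231 TPM in phyA-211 on sucrose and 140.3, 113 and 124 TPM in phyA-211 on sorbitol, against 229, 251 and 288 TPM in Col-0 on sucrose and 112, 129 and 107 TPM in Col-0 on sorbitol (interaction -0.34, unadjusted p = 0.0797). Histone H3.1 copies are nearly identical, so reads may be split between them.

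Cytosolic ribosomal proteins had a median of -0.20 (range -0.35 to -0.04), with 60 of 66 tested members of 76 below the median of all genes. Their sucrose medians were 0.49 in phyA-211 and 0.67 in Col-0, and no member had an unadjusted p under 0.05 in limma. The lean was no longer met under quantile normalization (-0.08), where the median stayed below that of all genes. The median was -0.35 without replicate 2 of phyA-211 on sorbitol. The lean was also not met without replicate 3 of Col-0 on sucrose (-0.04), replicate 1 of phyA-211 on sorbitol (-0.07) or replicate 1 of Col-0 on sorbitol (-0.14). AT2G27710, an acidic protein gene of the large subunit, was at 453, 431 and 541 TPM in phyA-211 on sucrose and 383, 257 and 353 TPM in phyA-211 on sorbitol, against 455, 514 and 713 TPM in Col-0 on sucrose and 259.9, 322 and 275 TPM in Col-0 on sorbitol. Sucrose libraries exceeded sorbitol libraries in both genotypes, and its interaction was -0.42 (SE 0.275, unadjusted p = 0.157).

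**Figure D5:**
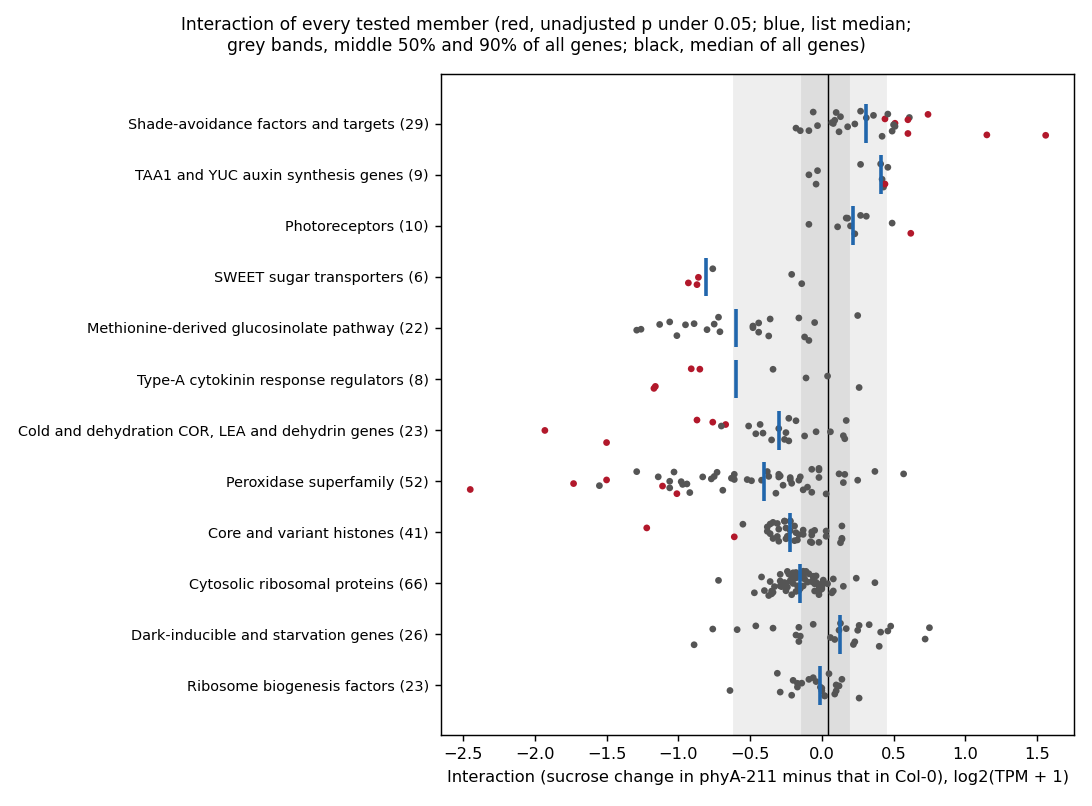
Interaction of every tested member of 12 lists on the log2(TPM + 1) scale, with list medians in blue, members of unadjusted p under 0.05 in red, and grey bands for the middle 50% and 90% of all genes (-0.14 to 0.19 and -0.62 to 0.45). Histones and ribosomal proteins are shifted by little but with few members above the median of all genes, while peroxidases and cold genes spread as far as -2.45 and -1.93.

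Chloroplast genes were mixed. The 4 Rubisco small subunit genes lay below the median of all genes, with a median of -0.38 (range -0.62 to -0.06), the smallest size without replicate 3 of phyA-211 on sucrose. RBCS1B was at 1079.7, 979 and 790.4 TPM in phyA-211 on sucrose and 931, 755 and 706 TPM in phyA-211 on sorbitol, against 4231, 4880.2 and 4567 TPM in Col-0 on sucrose and 2889, 2199 and 2233 TPM in Col-0 on sorbitol. Its interaction was -0.66 (SE 0.256, unadjusted p = 0.0244), next to -0.42 for RBCS2B and -0.26 for RBCS1A and -0.26 for RBCS3B, whose reads may be split between near-identical copies. Without that library RBCS2B had -0.17, RBCS1A 0.05 and RBCS3B 0.11. The 24 photosystem subunit genes had 23 members below the median of all genes at a median of -0.17, but this turned to 0.21 without it, and 8 settings in all lost the lean. Antenna genes had a median of -0.01 (range -0.35 to 0.42).

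Genes of chloroplast development and light induction had a median of -0.31 over 8 members (range -0.56 to -0.06). The lean was not met without replicate 3 of phyA-211 on sucrose (-0.06) or with library weights (-0.05). ELIP2, an early light-induced protein, was at 3.48, 3.9 and 4.92 TPM in phyA-211 on sucrose and 4.53, 2.65 and 4.03 TPM in phyA-211 on sorbitol, against 77.6, 67.1 and 51.2 TPM in Col-0 on sucrose and 11.6, 21.6 and 36.9 TPM in Col-0 on sorbitol. Mutant libraries lay below every Col-0 library, and the interaction was -1.45 (SE 0.464, adjusted p = 0.999). CGA1, a GATA factor that promotes chloroplasts, had sucrose changes of -0.22 in phyA-211 and 0.55 in Col-0 (interaction -0.77, unadjusted p = 0.0261). Interactions of ELIP1 and GLK2 were -0.57 and -0.33 (unadjusted p = 0.241 and 0.279), and GLK2 had -0.10 without replicate 3 of phyA-211 on sucrose.

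Flavonoid enzymes, which make flavonols and anthocyanins, had a sucrose change above 0 in both genotypes for all 16 tested members. The list leaned lower, at -0.18 (range -0.29 to -0.15), with 11 of 16 below the median of all genes, while single enzymes went either way. The lean was not met when any 1 of 5 libraries was left out. TT4, chalcone synthase, was at 106, 107 and 109 TPM in phyA-211 on sucrose and 23.1, 29.8 and 25.2 TPM in phyA-211 on sorbitol. Col-0 libraries had 334, 387 and 295 TPM with sucrose and 177, 131 and 77.6 TPM with sorbitol (interaction 0.55, unadjusted p = 0.123). FLS1, flavonol synthase, had sucrose changes of 2.08 in phyA-211 and 1.48 in Col-0 (interaction 0.60, unadjusted p = 0.0405). UGT78D2, a flavonoid glucosyltransferase, had sucrose changes of 0.14 in phyA-211 and 0.62 in Col-0 (interaction -0.48, unadjusted p = 0.0156), and GSTF12, which carries anthocyanins to the vacuole, had -0.58 at no more than 3.26 TPM.

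SWEET genes, which encode channels that move sugars across membranes, had lower interactions than most genes. All 6 tested members of 15 lay below the median of all genes, with a list median of -0.86 (range -0.98 to -0.41) and sucrose medians of -0.81 in phyA-211 and -0.30 in Col-0. The smallest size came without replicate 3 of phyA-211 on sucrose. Members with an unadjusted p under 0.05 numbered 3, all lower, next to 1.87% of all genes. SWEET2, a vacuolar sugar transporter, was at 15.8, 13.7 and 10.0 TPM in phyA-211 on sucrose and 43.1, 39.7 and 34.8 TPM in phyA-211 on sorbitol, against 28.98, 26 and 23.02 TPM in Col-0 on sucrose and 41.1, 39.7 and 37.8 TPM in Col-0 on sorbitol. It fell in both genotypes, by 1.52 in phyA-211 (adjusted p = 0.00121) and by 0.59 in Col-0 (adjusted p = 0.0188). Its sorbitol libraries overlapped between genotypes and its sucrose libraries did not (interaction -0.93, SE 0.219, adjusted p = 0.659).

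SWEET16, also of the vacuole, was at 7.84, 8.87 and 6.18 TPM in phyA-211 on sucrose, 13.1, 22.03 and 15.6 TPM in phyA-211 on sorbitol, 12.2, 10.6 and 15.5 TPM in Col-0 on sucrose and 13.2, 13.2 and 16.6 TPM in Col-0 on sorbitol. Its interaction was -0.87 (SE 0.285, adjusted p = 0.999). SWEET17, a vacuolar fructose carrier, had changes of -0.16 in phyA-211 and 0.70 in Col-0 (interaction -0.86, adjusted p = 0.999). SWEET12, which exports sucrose for phloem loading, was at 22.8, 18.3 and 1.38 TPM in phyA-211 on sucrose. Its interaction of -0.76 rested on the third of these libraries and was 0.29 without it.

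Cold and dehydration genes had larger negative sucrose changes in the mutant at the median. Of 23 tested COR, LEA and dehydrin genes, 19 lay below the median of all genes, at a median of -0.34 (range -0.54 to -0.24), with sucrose medians of -1.07 in phyA-211 and -0.63 in Col-0. The interaction had the sign of the mean sucrose change, counted here as a stronger response without phytochrome A, in 17 of 23 (73.9%), next to 55.8% of all genes. The sucrose change was below 0 in both genotypes for 19 members and above 0 in both for 1. Members with an unadjusted p under 0.05 numbered 5, or 21.7%, all lower, next to 1.87% of all genes. The lean was not met with library weights or without replicate 1 of phyA-211 on sorbitol or of Col-0 on sorbitol. The abscisic acid list, which shares 10 genes with it, had a median of -0.33 (range -0.37 to -0.18) and 14 of 17 members below the median of all genes. That list missed the rule with library weights and without replicate 3 of phyA-211 on sucrose.

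LTI30, a dehydrin, was at 2.58, 5.7 and 5.03 TPM in phyA-211 on sucrose and 32.6, 64.1 and 54.7 TPM in phyA-211 on sorbitol, against 21.8, 13.02 and 20.3 TPM in Col-0 on sucrose and 30.2, 52.5 and 61.3 TPM in Col-0 on sorbitol. It fell in both, by 3.24 in phyA-211 (adjusted p = 0.00121) and by 1.31 in Col-0 (adjusted p = 0.0161), and its sucrose mean was 0.0879 of the sorbitol mean in phyA-211 and 0.383 in Col-0. Sorbitol libraries overlapped between genotypes and sucrose libraries did not (interaction -1.93, SE 0.47, adjusted p = 0.695). COR413-PM1, a plasma membrane cold protein, was at 178, 203 and 173 TPM in phyA-211 on sucrose and 373, 507 and 403 TPM in phyA-211 on sorbitol, against 449, 465 and 454 TPM in Col-0 on sucrose and 570.2, 511 and 648 TPM in Col-0 on sorbitol. Mutant libraries were below Col-0 libraries under both sugars (interaction -0.87, SE 0.196, adjusted p = 0.636).

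KIN1, a cold-induced gene, was at 1.52, 3.04 and 2.53 TPM in phyA-211 on sucrose and 8.83, 13.9 and 9.06 TPM in phyA-211 on sorbitol, and at 13.2, 12.8 and 17.9 TPM in Col-0 on sucrose and 16.9, 14.9 and 22.7 TPM in Col-0 on sorbitol (interaction -1.50, SE 0.328, adjusted p = 0.636). KIN2, its near-identical neighbour, had -0.76 (unadjusted p = 0.0395), and reads may be split between them. LEA3 had -0.67 (unadjusted p = 0.0235). ABI1, a phosphatase that shuts off abscisic acid signalling, ran the other way, with sucrose changes of -0.71 in phyA-211 and -1.09 in Col-0 (interaction 0.38, unadjusted p = 0.0423).

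JAZ genes, which encode repressors of jasmonate responses, had a median of -0.23 (range -0.29 to -0.15), with 10 of 12 tested members of 13 below the median of all genes. TIFY7, the JAZ9 gene, was at 18.6, 15.5 and 5.64 TPM in phyA-211 on sucrose and 37.5, 40.4 and 29.4 TPM in phyA-211 on sorbitol, against 31.5, 29.6 and 30.8 TPM in Col-0 on sucrose and 49.6, 43.7 and 31.9 TPM in Col-0 on sorbitol (interaction -1.09, unadjusted p = 0.036). Sucrose libraries lay below sorbitol libraries in both genotypes. JAZ4, JAZ7 and JAZ1 had interactions of -0.80, -0.45 and -0.52. Without replicate 3 of phyA-211 on sucrose TIFY7 had -0.61 and JAZ1 -0.86. Genes of jasmonate synthesis and response leaned with them, at -0.27 over 8 members (range -0.55 to -0.16).

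Some large families of secreted and detoxifying proteins leaned lower, while others did not. Those that did not included pectin enzymes at -0.04, glycosyl hydrolases at -0.03, GDSL esterases and lipases at -0.05 and UDP-glycosyltransferases at -0.12. Peroxidase superfamily genes had a median of -0.45 (range -0.84 to -0.32), with 46 of 52 tested members of 65 below the median of all genes and sucrose medians of -0.22 in phyA-211 and 0.36 in Col-0. Defensins and lipid transfer proteins had -0.38 (range -0.48 to -0.19), with 55 of 75 tested members of 252 below and 11 (14.7%) with an unadjusted p under 0.05, all lower, next to 1.87% of all genes. Their lean was not met with library weights or without replicate 3 of either sucrose group, the median being -0.19 without that of phyA-211. Glutathione S-transferases had -0.33 (range -0.38 to -0.22) with 29 of 38 below, and cytochromes P450 had -0.26 (range -0.36 to -0.19) with 98 of 128 below. Extensins and arabinogalactan proteins of the cell wall had -0.24 (range -0.34 to -0.05) with 63 of 84 below, and sucrose medians of 0.34 in phyA-211 and 0.50 in Col-0. Their lean was not met with library weights (-0.12) or without replicate 2 of phyA-211 on sorbitol (-0.12). It was also not met without replicate 1 of phyA-211 on sucrose (-0.05) or replicate 3 of Col-0 on sucrose (-0.05).

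Root markers also leaned lower with all 12 libraries. Of 13 root marker genes, 9 were tested and 8 lay below the median of all genes, at a median of -0.29 (range -0.68 to -0.06, and 0.09 with library weights). Their summed level ranged between 928.2 and 1321.8 TPM in phyA-211 on sucrose and between 855.5 and 1958.0 TPM in phyA-211 on sorbitol. In Col-0 it ranged between 1318.4 and 1540.5 TPM with sucrose and between 730.7 and 1229.8 TPM with sorbitol. PYK10, a beta-glucosidase abundant in roots and hypocotyls, made up most of the sum, and the root iron and nitrate uptake genes IRT1, FRO2 and NRT2:1 stayed under 1 TPM in all 12 libraries. Members of the list at higher levels were uneven between libraries. PHT1;1 ranged between 9.54 and 48.7 TPM, TIP2;3 between 1.17 and 34.5 TPM and SCR between 19.7 and 38.5 TPM. PRP3 was at 2.2, 29.99 and 7.8 TPM in phyA-211 on sorbitol. SHV2, WOX5 and RHD6 did not exceed 2.08 TPM. The highest sum was in replicate 2 of phyA-211 on sorbitol. Without that library the root markers had a median of -0.06 and the peroxidases -0.38, and with library weights the peroxidases had -0.44. In other settings the medians of both lists moved the same way. Without replicate 1 of phyA-211 on sorbitol the root markers had -0.68 and the peroxidases -0.84, each the lowest of its range. Without replicate 1 of phyA-211 on sucrose the root markers had -0.11 and the peroxidases -0.32. The part of root tissue in the values of the secreted and detoxifying families was not tested. Fewer cells of a type and less RNA per cell cannot be told apart in bulk samples.

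AT1G49570, a peroxidase gene, was at 4.37, 11.5 and 9.88 TPM in phyA-211 on sucrose and 12.5, 62.1 and 45.7 TPM in phyA-211 on sorbitol, against 32.3, 19.7 and 29.2 TPM in Col-0 on sucrose and 10.3, 18.5 and 30.8 TPM in Col-0 on sorbitol. Libraries of each group spread widely, and its interaction was -2.45 (SE 0.766, adjusted p = 0.999). DOX1, an alpha-dioxygenase whose description places it in the peroxidase superfamily, had sucrose changes of -1.32 in phyA-211 and -0.21 in Col-0 (interaction -1.11, unadjusted p = 0.0238). LTP2, an epidermal lipid transfer protein, was at 202, 321 and 365 TPM in phyA-211 on sucrose and 419, 447 and 411 TPM in phyA-211 on sorbitol, against 564, 522 and 522 TPM in Col-0 on sucrose and 438, 443 and 343 TPM in Col-0 on sorbitol. Col-0 libraries overlapped mutant libraries under sorbitol but not under sucrose, where they were higher (interaction -0.97, SE 0.272, adjusted p = 0.949).

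Among the detoxifying enzymes, GSTU5 was at 43.98, 36.8 and 31.6 TPM in phyA-211 on sucrose and 44.9, 61.2 and 46.7 TPM in phyA-211 on sorbitol, against 86.6, 92.2 and 93.7 TPM in Col-0 on sucrose and 84.9, 69.8 and 63.9 TPM in Col-0 on sorbitol. Mutant and Col-0 libraries did not overlap under either sugar, and the interaction was -0.76 (SE 0.22, adjusted p = 0.949). GSTF9 had sucrose changes of 0.17 in phyA-211 and 1.06 in Col-0 (interaction -0.89, unadjusted p = 0.0218), while GSTF14 ran the other way (0.76, unadjusted p = 0.0405). CYP71B11 had an interaction of -0.92 (unadjusted p = 0.00385) and CYP94B3, which inactivates jasmonoyl-isoleucine, -1.54 (unadjusted p = 0.0151). CYP96A5 was at 30.9, 30.7 and 45.6 TPM in phyA-211 on sucrose and 13.4, 13.8 and 13.5 TPM in phyA-211 on sorbitol, against 20.2, 14.4 and 14.7 TPM in Col-0 on sucrose and 11.2, 10.4 and 13.2 TPM in Col-0 on sorbitol. It rose in phyA-211 (1.31, adjusted p = 0.00173), with an interaction of 0.85 (adjusted p = 0.949).

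Several families with large sucrose responses did not lean. Starvation genes, which rise when carbon runs out, had sucrose medians of -1.92 in phyA-211 and -2.05 in Col-0, with a change below 0 in both genotypes for all 26 members, and an interaction median of 0.08. That median was 0.58 without replicate 3 and -0.31 without replicate 2 of phyA-211 on sucrose, so its sign turned with the library left out. BGAL4, a beta-galactosidase, was at 35.9, 55.9 and 11.3 TPM in phyA-211 on sucrose and 198, 192 and 233.6 TPM in phyA-211 on sorbitol, against 34.5, 26.9 and 32.3 TPM in Col-0 on sucrose and 87.9, 130.2 and 152 TPM in Col-0 on sorbitol (interaction -0.89, SE 0.598). ATL8, ERD5 and DIN9 had interactions of -0.46, 0.46 and -0.18, and no member had an unadjusted p under 0.05. Without that replicate 3 the values were -0.26 for BGAL4, 0.88 for ERD5 and -0.10 for DIN9.

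Ribosome biogenesis genes had sucrose medians of 1.03 in phyA-211 and 1.04 in Col-0 over 23 members and an interaction median of -0.06 (range -0.29 to 0.06). FIB2, a fibrillarin of nucleolar RNA particles, had sucrose changes of 1.97 in phyA-211 and 2.26 in Col-0 (interaction -0.29, SE 0.363, and -0.64 without replicate 3 of phyA-211 on sucrose), and NOP10 had -0.64. DNA replication genes had sucrose medians of 1.06 in phyA-211 and 1.08 in Col-0 over 34 members, all above 0 in both genotypes, and an interaction median of -0.04 (range -0.15 to 0.04). TSO2, a ribonucleotide reductase subunit, had sucrose changes of 0.93 in phyA-211 and 1.37 in Col-0 (interaction -0.44, unadjusted p = 0.0765). Interaction medians of autophagy genes (0.04), translation factors (0.01), pentatricopeptide repeat proteins (-0.03) and disease resistance genes of the NBS-LRR type (0.01) were as near to that of all genes. The remaining lists that leaned lower were nitrate and ammonium genes at -0.18 (range -0.29 to -0.08), which lost the lean in 4 of 20 settings, and cytokinin oxidase and synthesis genes at -0.21 (range -0.25 to -0.09), which lost it in 7.

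Among genes that answered sucrose, the sign of the interaction fell both ways. The mean sucrose change over both genotypes passed an adjusted p under 0.05 in limma for 8496 genes, 5217 of them higher with sucrose. Of these 5217, 3262 had an interaction above 0, the sign of a larger rise without phytochrome A, and 1955 one below 0. Among the 3279 that were lower, 1537 had an interaction below 0, the sign of a larger fall, and 1742 one above 0. Over all genes tested, the interaction had the sign of the mean sucrose change in 55.8%. Only 2 genes passed the threshold for the interaction, so the counts describe signs and not responses shown to differ. These counts move with scaling, since the median of all genes was 0.04 as deposited and -0.01 after median-ratio rescaling.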

How the data were processed

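Polyadenylated RNA was sequenced from 12 libraries of shaded leaf tissue, 3 in each of 4 groups. The authors deposited a table of TPM per gene. Per the submitters' processing notes, the tools were HISAT2, DESeq2, fastp and cutadapt and the build was TAIR10, named with no role or version; the program that gave TPM is not given in the sources used here. Column sums and low values give no read counts, so depth is unknown and no counting interval is given.

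Genes with at least 1 TPM in at least 3 libraries were kept, and log2(TPM + 1) was fitted with 4 group means in limma 3.58.1 (R 4.3.3), with a mean-variance trend, over all 12 libraries and with no replicate block. P-values are 2-sided and were adjusted over 19862 genes. Fold changes on this scale understate those of low genes. The fit was tested on simulated data.

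Members and lists were chosen with earlier results of these data known. Named genes are PHYA, the genes past the threshold, then up to 10 in each direction of smallest p whose mean reached 5 TPM in 1 group or more, and up to 4 members of smallest p from each described list; genes without a symbol could be left out. Symbols and overlaps come from the files and the RefSeq table (TAIR10.1). Alternatives were other pseudocounts, filters, scalings, a replicate block, library weights, no trend, and leaving out each library. Same-numbered libraries had deviations correlated between -0.27 and 0.31, with 6 of 18 pairs over 0.1, so the numbers were not taken to pair them.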

Additional observations from a re-analysis of the deposited data

Results flagged for a closer look

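TEM1 is listed because its sucrose change differed between phyA-211 and Col-0 in the test of the difference itself, by 1.51 on the log2(TPM + 1) scale. The same test lists ath-MIR833a, at 4.24. That value rests on 3 phyA-211 sucrose libraries against 9 libraries listed at 0, so its size is set by the pseudocount (7.49 with a pseudocount of 0.1) and is no fold change.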

How the results depend on the processing

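The number of genes with a higher interaction was 1 with no filter, median-ratio rescaling, quantile normalization, the replicate block or no variance trend, and 980 with library weights; leaving out each library gave 1 to 2. The number lower was 0 with the replicate block and 396 with library weights. With library weights the interactions of GLK2 and SWEET12 turned to 0.07 and 0.15, and the root marker median to 0.09. Leaving out each library gave interactions of -0.43 to 0.05 for RBCS1A, -0.48 to 0.11 for RBCS3B and -1.37 to 0.29 for SWEET12, the highest each without replicate 3 of phyA-211 on sucrose. List medians ranged likewise between -0.05 and 0.68 for branched-chain amino acid breakdown, 0.15 and 0.36 for auxin synthesis, -0.55 and -0.16 for jasmonate genes, -0.98 and -0.41 for SWEET genes, and -0.40 and 0.21 for photosystem genes. With a filter of 5 TPM, type-A response regulators were at -0.91 and glutathione S-transferases at -0.17. The causes were not tested. Without replicate 3 of phyA-211 on sucrose, 1403 genes had an unadjusted p under 0.05 in limma, against 792 with all libraries. With library weights, which were estimated from 3 libraries a group, 5762 genes did. No effect of depth could be examined, since TPM keeps none.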

Other observations

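The genes given here were chosen after their values were seen, and none passed the adjusted threshold in limma. The lists they belong to did not lean: medians from that of all genes were 0.08 for organ size, -0.05 for light signalling, 0.04 for B-box and 0.04 for bHLH factors. ARGOS, which promotes organ growth, was at 58.3, 57.1 and 77.8 TPM in phyA-211 on sucrose and 89.4, 57.1 and 88.3 TPM in phyA-211 on sorbitol, against 17.6, 16.6 and 23.3 TPM in Col-0 on sucrose and 36.6, 51.5 and 71.3 TPM in Col-0 on sorbitol (interaction 1.13, adjusted p = 0.999). ARL, its relative, had sucrose changes of -0.05 in phyA-211 and -1.35 in Col-0 (interaction 1.30, adjusted p = 0.697). The B-box factors BBX17, bbx23, BBX28 and COL3 had interactions of 1.00, 1.12, 0.45 and 0.41. Among bHLH factors, CIB1, BEE3 and BIM2 had 0.81, 0.66 and 0.39, while bHLH115 had -0.44. PKS2, a phytochrome kinase substrate, had 0.63, and the clock gene ELF4 had -0.85.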
